A study of Mus musculus with 5 samples.

Results

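The complement components and receptors examined here were 9 genes, chosen by symbol: C1qa, C1qb, C1qc, C3, C4b, Cfb, C3ar1, C5ar1 and Serping1. They were 9 of the 31053 genes in the matrices, and each symbol stood for a single gene row. Their UMIs (unique molecular identifiers, which count captured RNA molecules) were counted by cell class and by tumor, and B20-4.1.1 was compared with isotype IgG2a. For context, a wider list of 43 complement genes was followed, of which 42 were in the files and C4a was not.

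Complement is a cascade of plasma and tissue proteins that marks particles and cells for uptake or lysis. The classical pathway starts when C1q, built from the chains encoded by C1qa, C1qb and C1qc, binds its target. C4b and C3 are then cleaved and deposited, factor B (Cfb) amplifies C3 cleavage in the alternative pathway, and C1 inhibitor (Serping1) blocks the first proteases. The released fragments C3a and C5a act on myeloid cells through the receptors encoded by C3ar1 and C5ar1, and tumor macrophages are known as a rich source of C1q.

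The cells came from mammary tumors of FVB/N-Tg(MMTV-PyVT)634Mul/J mice, whose transgene places polyomavirus middle T antigen under the mouse mammary tumor virus promoter, active in mammary epithelium, so treated and control mice carried the same transgene. From 7 weeks of age and for 6 weeks, mice received 5 mg/kg of B20-4.1.1, a monoclonal antibody that neutralizes VEGF-A, or of isotype IgG2a, in 2 injections per week. DAPI-negative (viable) sorted cells of 3 tumors, 1 tumor per mouse, were marked with multiplexing oligonucleotides and run together as 1 pool. There were 2 isotype IgG2a pools (6 tumors) and 3 B20-4.1.1 pools (9 tumors), and since each pool held a single treatment, pool and treatment cannot be told apart.

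The matrices held 30340 cells and 198806160 gene UMIs, and 19533 cells (10630 isotype, 8903 B20-4.1.1) passed the filters on UMIs per cell and mitochondrial UMIs. Cells were gated on marker genes that included no complement gene, which gave 1572 macrophage-like, 13648 epithelial-like, 2784 T-like, 96 neutrophil-like, 174 B-like, 63 dendritic-like, 58 fibroblast-like and 19 endothelial-like cells. In 3 B20-4.1.1 tumors (pool 1 tumor 3, pool 2 tumors 1 and 3) between 58.2% and 67.3% of kept cells were T-like. Pairs of pools shared 0 to 24 cell barcodes, and no barcode occurred in more than 1 tumor of a pool. The oligonucleotides of a cell's own tumor were highest in 86.8% of cells of isotype pool 1 tumor 3 and 95.5% of tumor 2. In the other tumors this share was at least 98.9%. Before filtering, the median depth per tumor was 2192 to 2423 UMIs in isotype pool 1 and 6034 to 6582 in isotype pool 2. It was 2819 to 9834.5 in B20-4.1.1 tumors. The median depth of kept cells was 6337 UMIs in macrophage-like, 8740 in epithelial-like and 4092.5 in T-like cells.

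The 3 C1q chain genes lie side by side on the minus strand of chromosome 4 (GRCm38), with C1qb at chr4:136880129-136886187, C1qc at chr4:136889804-136893065 and C1qa at chr4:136895917-136898803, together spanning 18675 bases. C4b (chr17:34728380-34743882) and Cfb (chr17:34856374-34862518) lie on the same chromosome as C3 (chr17:57203970-57228136). C3ar1 is at chr6:122847138-122856161, C5ar1 at chr7:16246743-16259540 and Serping1 at chr2:84765387-84775444, and all 9 genes are on the minus strand.

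Promoter windows of RefSeq (GRCm38.p6, 250 bases before the RefSeq start, printed 5′ to 3′ on the gene's strand) were available for 5 of the 9 genes. Those of 4 genes are shown because these genes followed different cell classes: C1qb, C3ar1 and C5ar1 were carried mainly by macrophage-like cells and C3 by fibroblast-like and epithelial-like cells. Capitals mark letters that match the core bound by ETS factors, a family that includes the myeloid factor PU.1 (AGGAAG, or CTTCCT on the other strand), or a C/EBP motif (TTGCNNAA, or TTNNGCAA).
C1qb, chr4:136886201-136886450: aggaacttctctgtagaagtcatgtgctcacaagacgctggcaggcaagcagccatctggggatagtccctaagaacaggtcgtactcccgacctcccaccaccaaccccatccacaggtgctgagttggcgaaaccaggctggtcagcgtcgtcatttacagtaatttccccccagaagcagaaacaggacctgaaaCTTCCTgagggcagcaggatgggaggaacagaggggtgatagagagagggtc
C3, chr17:57228137-57228386: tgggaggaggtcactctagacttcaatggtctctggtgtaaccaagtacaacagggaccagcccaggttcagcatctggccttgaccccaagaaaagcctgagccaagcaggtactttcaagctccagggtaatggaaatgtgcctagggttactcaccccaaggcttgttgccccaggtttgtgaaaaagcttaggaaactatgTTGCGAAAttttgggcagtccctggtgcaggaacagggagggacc
C3ar1, chr6:122856158-122856407: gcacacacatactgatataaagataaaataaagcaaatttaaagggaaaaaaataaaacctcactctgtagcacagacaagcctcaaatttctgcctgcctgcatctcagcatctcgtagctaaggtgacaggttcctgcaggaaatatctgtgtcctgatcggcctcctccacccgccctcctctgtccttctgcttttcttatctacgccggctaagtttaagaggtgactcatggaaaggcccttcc
C5ar1, chr7:16259339-16259588: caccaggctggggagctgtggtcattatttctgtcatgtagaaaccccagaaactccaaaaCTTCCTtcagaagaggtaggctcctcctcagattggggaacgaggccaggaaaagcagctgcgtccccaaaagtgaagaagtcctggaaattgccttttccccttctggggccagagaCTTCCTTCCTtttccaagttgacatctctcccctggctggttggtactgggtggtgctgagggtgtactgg
The C1qb window held 1 ETS match that ended 46 bases before the start. The C5ar1 window held 3, ending 183, 65 and 61 bases before it, of which the last pair overlap. These distances are from the RefSeq start, and most bases of the C5ar1 window lie inside the longer GENCODE gene, 28 of them in an exon. The C3 window held 1 C/EBP match, 37 bases before the start, and the C3ar1 window held neither run of letters. The C1qc window, not shown because 151 of its 250 bases lie in an annotated exon, held 2 ETS matches. Of 32851 windows of this length, 29.5% held an ETS match and 9.56% a C/EBP match, so these matches describe the letters and show no binding.

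C1qa, C1qb and C1qc had the highest levels of the 9 genes in macrophage-like cells, and most of their UMIs lay in that class. C1qa reached 44.0 UMIs per 10000 UMIs of the class in macrophage-like cells (95% Poisson interval 43.6 to 44.4, counting error only), C1qb 31.3 and C1qc 27.9, on 50027, 35544 and 31741 UMIs. These are 3′ UMI counts, which do not scale with transcript length, so length does not enter when levels of different genes are set side by side. Other differences in counting between genes were not tested. Over the 15 tumors the C1qa level in macrophage-like cells was 43.5 ± 7.51 (SD, n = 15). Macrophage-like cells held 89.2% of all C1qa UMIs, 89.0% of C1qb and 89.6% of C1qc, while they made up 8.05% of the kept cells.

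Outside the macrophage gate the 3 chains were at low levels or not detected. C1qa was at 0.0787 UMIs per 10000 in epithelial-like, 0.134 in T-like and 0.213 in B-like cells, between 0.0885 and 0.181 in the 4 remaining classes (2 to 8 UMIs each), and the spread over tumors of the first pair overlapped (0.0761 ± 0.0517 and 0.151 ± 0.136, SD, n = 15). With every cell thinned to 2500 UMIs, 81.9% of macrophage-like cells had a C1qa UMI, against 2.32% of epithelial-like, 2.95% of T-like and 4.02% of B-like cells. Without thinning the shares were 83.3%, 6.51%, 5.46% and 7.47%. T-like and B-like cells are not known to make C1q, and after thinning the pooled epithelial-like share lay below theirs. It also lay below the fibroblast-like (3.45%) and endothelial-like (10.5%) shares and above the neutrophil-like (2.08%) and dendritic-like (1.59%) shares. The order against T-like cells varied by tumor. It was the reverse in isotype pool 1 tumor 2 and isotype pool 2 tumor 1. In B20-4.1.1 pool 1 tumors 1 and 2, pool 2 tumor 1 and pool 3 tumor 2 it was also the reverse. In the first of these B20-4.1.1 tumors the shares were 2.38% and 1.37%. Whether the epithelial-like UMIs are background or expression was not tested. C1qb lay between 0.0275 (neutrophil-like, 1 UMI) and 0.181 (endothelial-like, 2 UMIs) outside macrophage-like cells, and C1qc between 0 UMIs in 58 fibroblast-like cells, which allow a level of up to 0.0531, and 0.181 (endothelial-like, 2 UMIs). With all pools summed, C1qa made up 42.6% of C1q UMIs in macrophage-like cells (95% Wilson interval 42.4% to 42.9%), 43.2% in epithelial-like (41.2% to 45.1%) and 43.7% in T-like cells (39.0% to 48.6%). Within pools the proportions varied more, as in the T-like cells of isotype pool 1, where C1qa made up 58.6% (45.8% to 70.4%, 58 C1q UMIs) against 42.7% in macrophage-like cells, and in the epithelial-like cells of isotype pool 2, where C1qb made up 38.5% (33.3% to 44.0%, 317 C1q UMIs) against 31.4%.

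**Figure D1:**
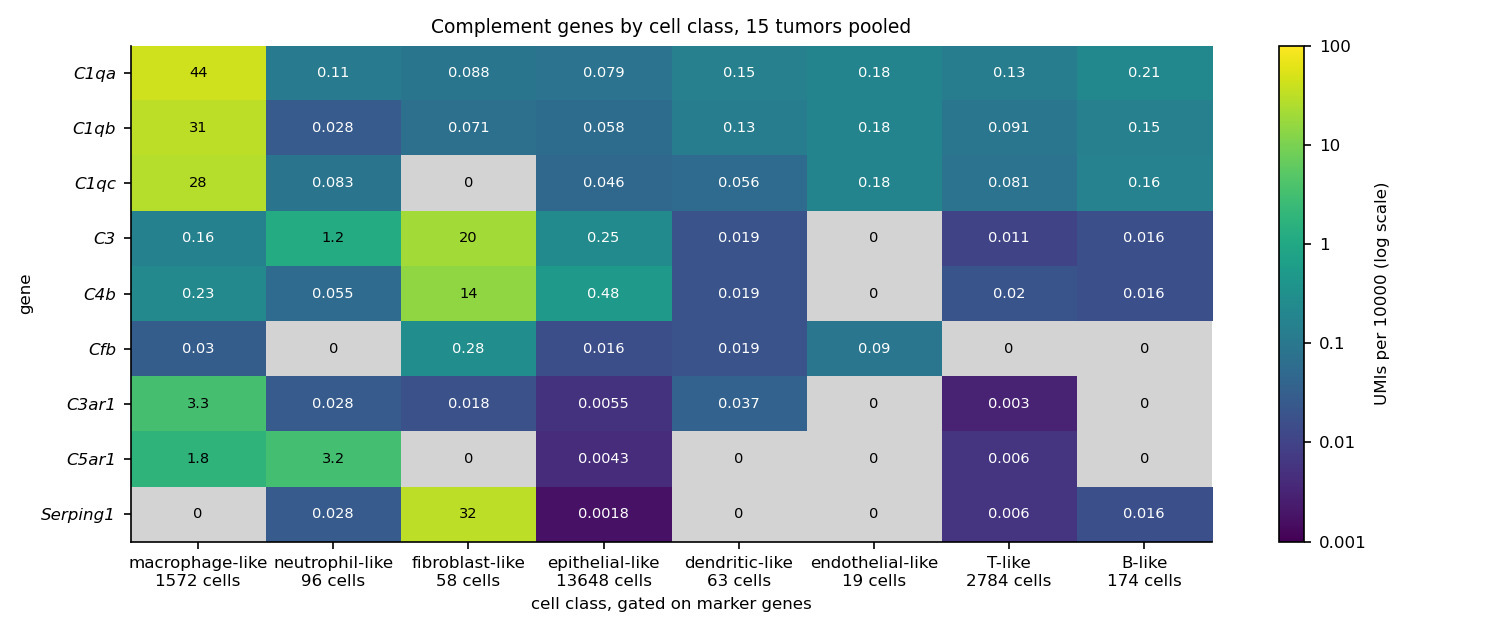
UMIs per 10000 UMIs of the class (color, log scale, and printed in each cell) for the 9 genes (rows) in 8 marker-gated cell classes (columns), with the 15 tumors pooled and grey where no UMI was counted. The 3 C1q chains stand at 44.0, 31.3 and 27.9 in macrophage-like cells, Serping1 at 32.0 in fibroblast-like cells, and C5ar1 in both macrophage-like and neutrophil-like cells.

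The C1q level outside macrophage-like cells was also set beside the C1q content of each pool. Summed over the 3 chains and all kept cells, isotype pool 1 had the most C1q (11.8 UMIs per 10000) and isotype pool 2 the least (4.92), with the B20-4.1.1 pools between (8.69, 7.45 and 5.90). In T-like cells the sums were 0.530, 0.110, 0.430, 0.280 and 0.250 in the same order, which ranks the 5 pools identically. In epithelial-like cells they were 0.366, 0.0730, 0.201, 0.0922 and 0.145, so isotype pool 1 was again highest and isotype pool 2 lowest. These 5 points share the macrophage share of each pool, which ran from 5.52% to 11.5% of kept cells.

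**Figure D2:**
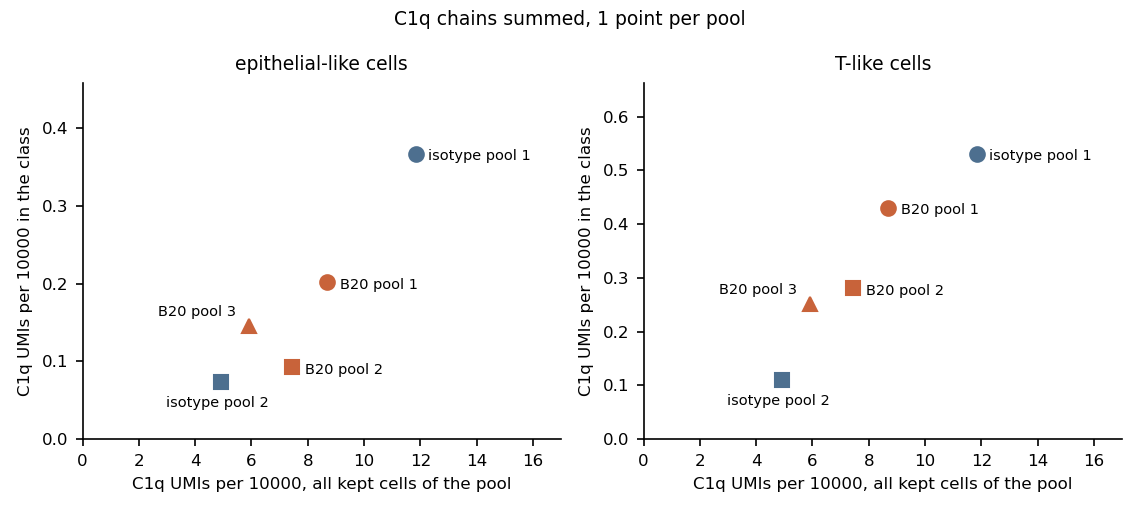
Summed C1q UMIs per 10000 in epithelial-like cells (left) and T-like cells (right) against the same sum over all kept cells of the pool, 1 point per pool, blue for isotype and orange for B20-4.1.1. Isotype pool 1 is highest (0.366 and 0.530) and isotype pool 2 lowest (0.0730 and 0.110) on both vertical axes.

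Within each tumor, the macrophage-like cells were compared with the epithelial-like cells to ask which class carries each gene. All 7 members that could be tested passed the threshold (edgeR quasi-likelihood F test with the tumor as a block, adjusted p under 0.05), but 79.6% of the 11418 genes tested did so, 35.2% higher and 44.4% lower in macrophage-like cells. C1qa was 9.28 log2 units higher (SE 0.23), C1qb 9.14 (SE 0.19) and C1qc 9.33 (SE 0.22) in macrophage-like cells, C3ar1 9.14 (SE 0.18) and C5ar1 8.57 (SE 0.23), each in 15 of 15 tumors. C4b went the other way, at -1.01 (SE 0.23, edgeR adjusted p = 0.00028), and so did C3, at -0.68 (SE 0.19, edgeR adjusted p = 0.00238), both higher in epithelial-like cells in 11 of 15 tumors. Without B20-4.1.1 pool 3 the C3 difference was -0.43 (edgeR adjusted p = 0.0598). Cfb and Serping1 had too few UMIs for this test. Of the wider complement list, 15 of the 21 genes tested were higher in macrophage-like cells and 6 in epithelial-like cells. The first group included Cd93 (7.70 log2 units, SE 0.30) and properdin (Cfp, 6.34, SE 0.25), which stabilizes the C3 convertase, each in 15 of 15 tumors, and the second included Clu (-6.03, SE 0.14) in 15 of 15 tumors.

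In macrophage-like cells the C1q chains did not differ detectably between the treatments. C1qa ranged from 29.3 to 46.9 UMIs per 10000 in the 6 isotype tumors (median 42.4) and from 33.1 to 58.9 in the 9 B20-4.1.1 tumors (median 43.8). The groups overlapped, with 4 of 9 B20-4.1.1 tumors above the highest isotype tumor. The log2 fold change was 0.21 for C1qa (SE 0.13, edgeR adjusted p = 0.638), 0.21 for C1qb (SE 0.13, edgeR adjusted p = 0.624) and 0.20 for C1qc (SE 0.13, edgeR adjusted p = 0.667). The 95% interval of the C1qa difference ran from -0.05 to 0.48 log2 units. C1qb was 29.2 ± 3.65 in isotype tumors and 32.5 ± 5.71 under B20-4.1.1, and C1qc 26.0 ± 4.69 and 28.7 ± 4.34 (SD, n = 6 and 9).

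Of the 9 genes, 7 passed the filter on low counts in macrophage-like cells, and 0 of these 7 were called between treatments, where 0.0721% of the 6934 genes tested were called (0.0577% higher and 0.0144% lower, 5 genes in all, and 675 at an unadjusted p under 0.05). The fold changes of these 7 were all positive, as were those of 3427 of the 6934 genes tested. Their median was 0.28 log2 units, against a median of -0.00408 over all genes tested. Of the wider complement list, 17 genes were tested, 16 had a positive value and 0 were called (median 0.21). With DESeq2, 35 genes of the whole table were called.

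**Figure D3:**
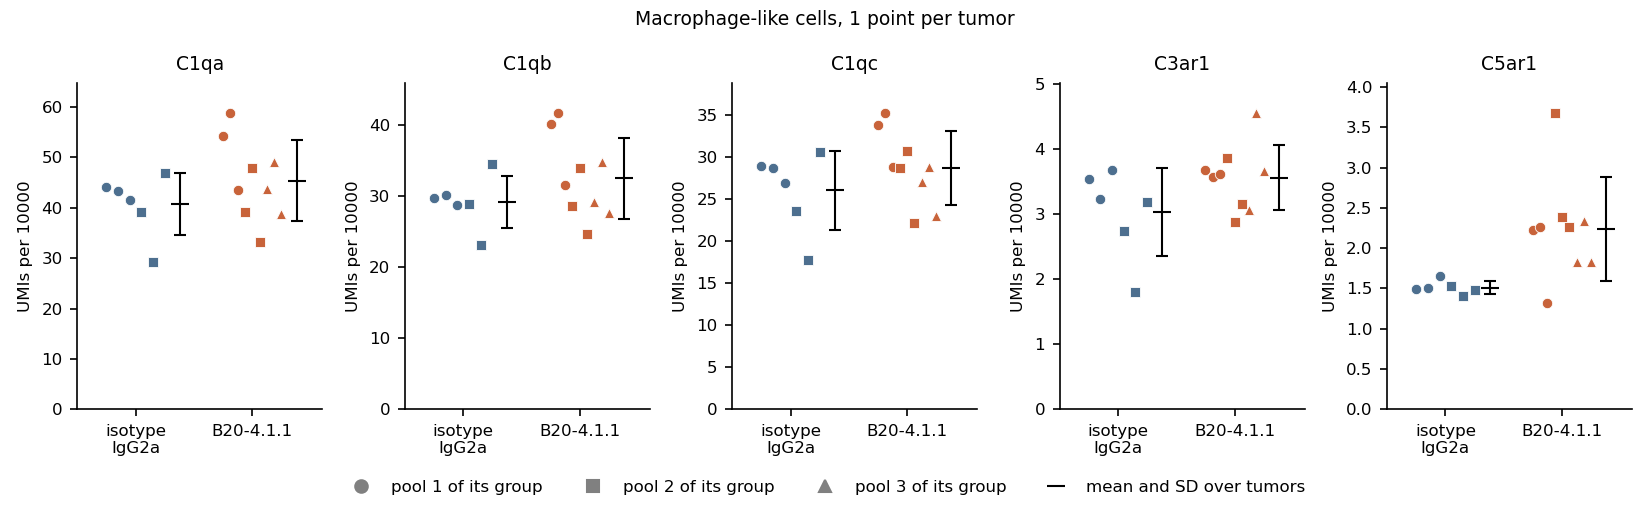
UMIs per 10000 of C1qa, C1qb, C1qc, C3ar1 and C5ar1 in macrophage-like cells, 1 point per tumor (shape marks the pool), with the mean and SD over 6 isotype IgG2a and 9 B20-4.1.1 tumors. The C1q chains and C3ar1 overlap between treatments, and for C5ar1 8 of 9 B20-4.1.1 tumors lie above the isotype maximum of 1.65.

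Most macrophage-like cells carried all 3 chains or none. All 3 chains had a UMI in 1273 of the 1572 cells (81.0%), none in 233 (14.8%), and 1 or 2 chains in 36 and 30 cells. After thinning, 16.3% of cells had no chain, 14.0% of those in isotype and 19.6% of those in B20-4.1.1 tumors. Per tumor this share ran from 5.14% to 39.0% in isotype and from 7.5% to 40.9% in B20-4.1.1 tumors, so the ranges overlapped. The mean level of C1q was the higher in B20-4.1.1 tumors and the share of cells with C1q the lower, and no order of the treatments is read from the share. Over the 1572 cells, which share libraries and differ in depth, Pearson's r on natural-log values was 0.959 to 0.964 between the C1q chains, 0.259 to 0.267 between a chain and C3ar1, and -0.0365 to -0.0426 between a chain and C5ar1.

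The C1q level differed between clusters of macrophage-like cells. In a clustering from which complement genes were left out, 1235 of the macrophage-like cells formed a cluster led by Ms4a7, Apoe and Cd63, with 51.1 C1qa UMIs per 10000 and a C1qa UMI in 90.0% of thinned cells. Another cluster, of 205 cells, led by Retnla, Lyz1, Ccl6 and F13a1, had 7.43 C1qa UMIs per 10000 and a C1qa UMI in 23.4% of thinned cells. A further one, led by the proliferation genes Top2a, Mki67 and Birc5 (106 cells), was close to the first, at 43.7. C3ar1 fell in the same order as C1q between the first 2 clusters (3.84 and 1.08 UMIs per 10000), while C5ar1 did not (1.89 and 1.84). C3 and C4b ran opposite to C1q, with 0.596 and 0.690 UMIs per 10000 in the C1q-low cluster against 0.0934 and 0.156 in the C1q-high cluster. Of the isotype macrophage-like cells 12.9% were in the C1q-low cluster and 76.6% in the C1q-high cluster, and of the B20-4.1.1 cells 13.3% and 81.4%. These are values of pooled cells, without a test.

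**Figure D4:**
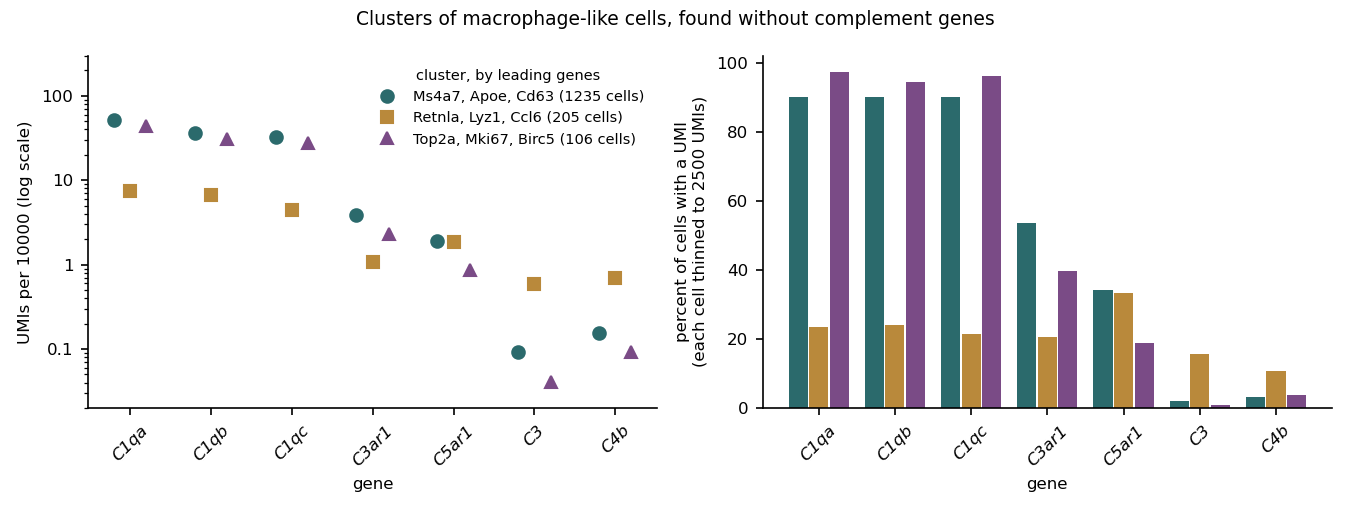
UMIs per 10000 (left, log scale) and percent of cells with a UMI after thinning to 2500 UMIs (right) for 7 complement genes in 3 clusters of macrophage-like cells, named by leading genes, all tumors pooled. C1q is lowest in the cluster led by Retnla, Lyz1 and Ccl6 (7.43 for C1qa against 51.1), C3 and C4b are highest there, and C5ar1 is alike in the first 2 clusters.

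C3ar1, the receptor for C3a, had 3.30 UMIs per 10000 in macrophage-like cells and was found in 47.9% of them after thinning, against 0.264% of epithelial-like and 0.0718% of T-like cells. Macrophage-like cells held 89.8% of its 4174 UMIs. Per tumor it ranged from 1.80 to 3.67 in isotype (median 3.21) and from 2.88 to 4.56 in B20-4.1.1 macrophage-like cells (median 3.61). The groups overlapped, and the log2 fold change of C3ar1, 0.28 (SE 0.14), did not pass the threshold (edgeR adjusted p = 0.518).

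C5ar1, the receptor for C5a, was found in both macrophage-like and neutrophil-like cells. Of its 2454 UMIs, macrophage-like cells held 82.6% and neutrophil-like cells 4.73%. Its level was 1.78 UMIs per 10000 in the 1572 macrophage-like cells and 3.19 in the 96 neutrophil-like cells (95% Poisson interval 2.64 to 3.83), and after thinning 32.9% and 51.0% of these cells had a C5ar1 UMI. In isotype macrophage-like cells it lay between 1.41 and 1.65 (median 1.50), and in B20-4.1.1 macrophage-like cells between 1.32 and 3.68 (median 2.26). All but 1 B20-4.1.1 tumor were above the highest isotype tumor, and the exception (pool 1 tumor 3) had 22 macrophage-like cells and 23 C5ar1 UMIs. The highest B20-4.1.1 tumor (pool 2 tumor 1, 3.68) also had few, with 25 macrophage-like cells and 85 C5ar1 UMIs. The log2 fold change was 0.62 (SE 0.15), with an unadjusted edgeR p of 0.000453 and an edgeR adjusted p of 0.121. Of the 15 alternatives tried, 3 placed C5ar1 past the threshold: DESeq2 (0.63, DESeq2 adjusted p = 0.00603), thinned cells (0.83, edgeR adjusted p = 0.0138) and leaving out isotype pool 2 (0.63, edgeR adjusted p = 0.0485). The others did not, among them voom with a random effect for the pool and sums per pool.

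After the C5ar1 difference had been seen, it was also read within a cluster and beside neutrophil markers. In the C1q-high cluster alone, C5ar1 ran from 1.53 to 1.76 UMIs per 10000 in 6 isotype tumors and from 1.92 to 2.60 in the 7 B20-4.1.1 tumors with at least 20 such cells. These groups did not overlap, as was the case for 0.461% of the 6934 genes in that cluster. The 2 B20-4.1.1 tumors with fewer such cells had C5ar1 at 1.45 (pool 1 tumor 3, 15 cells, 19 UMIs) and 3.60 (pool 2 tumor 1, 18 cells, 58 UMIs), and with the first of these included the groups overlapped. The 7 neutrophil markers, all of which had UMIs in macrophage-like cells, summed there to 0.235 to 1.20 UMIs per 10000 in isotype and to 0.260 to 1.32 in B20-4.1.1 tumors, and 2 of 7 were higher in B20-4.1.1 tumors. C5ar1 over all kept cells ranged from 0.0724 to 0.219 in isotype and from 0.0479 to 0.278 in B20-4.1.1 tumors (log2 fold change 0.22, edgeR adjusted p = 0.709).

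C3, the component on which all activation pathways converge, was most abundant per cell in fibroblast-like cells and most abundant in total in epithelial-like cells. It had 19.9 UMIs per 10000 in the 58 fibroblast-like cells (1127 UMIs, 52.2% of them from 1 tumor), 1.21 in neutrophil-like, 0.247 in epithelial-like, 0.159 in macrophage-like cells and 0.0105 in T-like cells. Epithelial-like cells held 65.6% of its 5049 UMIs and fibroblast-like cells 22.3%. After thinning, 5.55% of epithelial-like cells had a C3 UMI against 0.216% of T-like cells, at median depths of 8740 and 4092.5 UMIs before thinning.

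C3 was higher in epithelial-like cells under B20-4.1.1 in the fit over tumors. It lay between 0.134 and 0.283 UMIs per 10000 in isotype tumors (median 0.178, mean 0.192 ± 0.0581, SD, n = 6) and between 0.150 and 0.506 in B20-4.1.1 tumors (median 0.324, mean 0.329 ± 0.119, SD, n = 9). The groups overlapped, and 6 of 9 B20-4.1.1 tumors exceeded the highest isotype tumor, 8 of 9 the mean of the isotype tumors. The log2 fold change was 0.82 (SE 0.23, 1.77-fold, edgeR adjusted p = 0.0277). It was the only call among the 6 members tested there, in a comparison in which 14.4% of the 12285 genes tested were called and 7.42% were called higher.

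The C3 call depended on how pools were treated. It did not hold in voom with a random effect for the pool (0.57, limma adjusted p = 0.556), after summing the tumors of a pool (0.67, edgeR adjusted p = 0.378), without isotype pool 1 (0.74, edgeR adjusted p = 0.200), without B20-4.1.1 pool 1 (0.80, edgeR adjusted p = 0.0726) and without the 3 tumors rich in T-like cells (0.78, edgeR adjusted p = 0.0654), and its direction held in each. The 7 fibroblast markers summed in epithelial-like cells to 0.0246 to 0.0619 UMIs per 10000 in isotype and to 0.0232 to 0.150 in B20-4.1.1 tumors, with 4 of 7 higher in B20-4.1.1 tumors, and their part in the C3 difference was not tested. In macrophage-like cells C3 rested on 81 isotype and 100 B20-4.1.1 UMIs, at 0.108 ± 0.0440 and 0.237 ± 0.148 UMIs per 10000 (log2 fold change 0.99, SE 0.35, edgeR adjusted p = 0.356).

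C4b, whose product is the C4 component of the classical and lectin pathways, was, like C3, highest in fibroblast-like cells, but unlike C3 was low in neutrophil-like cells (0.0551 UMIs per 10000, 2 UMIs). It had 14.5 UMIs per 10000 in fibroblast-like, 0.479 in epithelial-like, 0.226 in macrophage-like cells and 0.0203 in T-like cells, and epithelial-like cells held 79.5% of its 8074 UMIs. Its near-identical copy C4a was not among the counted genes, so these values are uncertain as to which copy they came from. In epithelial-like cells C4b ranged from 0.260 to 0.767 in isotype (median 0.377) and from 0.285 to 0.695 in B20-4.1.1 tumors (median 0.492). The B20-4.1.1 range lay inside the isotype range, and the log2 fold change of 0.33 (SE 0.23) did not pass the threshold (edgeR adjusted p = 0.335), except without isotype pool 2 (0.53, edgeR adjusted p = 0.0497). In macrophage-like cells it was 0.31 (SE 0.41, edgeR adjusted p = 0.856) and -0.11 without isotype pool 1.

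Cfb was the scarcest of the 9, with 270 UMIs in all kept cells, 77.4% of them in epithelial-like cells. Its highest level was 0.283 UMIs per 10000 in fibroblast-like cells (16 UMIs). A single UMI in the 19 endothelial-like cells gave 0.0903, and the level was 0.0299 in macrophage-like and 0.0156 in epithelial-like cells, and 0 UMIs in 2784 T-like cells allow a level of up to 0.00226. In epithelial-like cells Cfb was at 0.0159 ± 0.00456 in isotype tumors and 0.0186 ± 0.00834 under B20-4.1.1 (log2 fold change 0.16, SE 0.26, edgeR adjusted p = 0.709).

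In epithelial-like cells the C1q chains, which were at low levels there, had fold changes that turned with the pool left out. C1qa was 0.114, 0.190 and 0.171 UMIs per 10000 in the 3 tumors of isotype pool 1, 0.0282, 0.0267 and 0.0292 in those of isotype pool 2, and 0.0281 to 0.102 in the B20-4.1.1 tumors. The B20-4.1.1 tumors lay below those of isotype pool 1 and reached down into the values of isotype pool 2, and the log2 fold change was -0.30 (SE 0.40, edgeR adjusted p = 0.642). Without isotype pool 1 it was 1.23 (edgeR adjusted p = 0.0472) and without isotype pool 2 it was -1.02 (edgeR adjusted p = 0.00653). C1qb (-0.24, edgeR adjusted p = 0.632) and C1qc (-0.41, edgeR adjusted p = 0.510) changed direction in the same way, to 0.82 and 1.11 without isotype pool 1 and to -0.83 and -1.13 without isotype pool 2.

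The treatment effect was also compared between macrophage-like and epithelial-like cells, with an interaction term. Of the 7 members tested, 0 were called, where 0.0788% of the 11418 genes tested were called (0.00876% higher and 0.0701% lower in macrophage-like cells, 9 genes in all, 1030 at an unadjusted p under 0.05, and 16 genes with DESeq2). The largest difference among the members was that of C5ar1, at 1.43 log2 units (SE 0.66, edgeR adjusted p = 0.517), and those of C1qa, C1qb and C1qc were 0.38, 0.42 and 0.49. Without isotype pool 2 the differences of C1qa (1.34), C1qb (1.21), C1qc (1.37) and C5ar1 (2.40) passed the threshold, with edgeR adjusted p-values from 0.00127 to 0.00384. With other pools left out, the differences of these genes ran down to -0.95, -0.63, -0.87 and -1.16 in the same order, without a call. The epithelial-like side of these differences was low, with 58 C5ar1 UMIs in 13648 cells. The tumors of isotype pool 1 had 10, 14 and 15 of these, and those of isotype pool 2 had 1, 0 and 2. Summed epithelial-like C1q was 0.366 and 0.0730 UMIs per 10000 in these 2 pools. In T-like cells none of the 9 genes passed the filter on low counts, and 0% of the 6311 genes tested were called with edgeR (1016 at an unadjusted p under 0.05, and 75 with DESeq2).

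Serping1, which encodes C1 inhibitor, was a product of fibroblast-like cells. It had 32.0 UMIs per 10000 there (95% Poisson interval 30.6 to 33.5), was found in 58 of 58 such cells, and had 0 UMIs in the 1572 macrophage-like cells, which allows a level of up to 0.00264. Epithelial-like cells had 0.00179 and T-like cells 0.00603 UMIs per 10000. Fibroblast-like cells held 88.2% of the 2054 Serping1 UMIs, and cells that reached several marker lists held 10.1%.

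Over all kept cells Serping1 was higher under B20-4.1.1 in the fit over tumors, and the call depended on how pools were treated. It ranged from 0.000467 to 0.0589 UMIs per 10000 in isotype tumors (median 0.0197) and from 0.0488 to 0.836 in B20-4.1.1 tumors (median 0.168), with 8 of 9 B20-4.1.1 tumors higher than any isotype tumor. The log2 fold change was 3.33 (SE 0.88, 10.0-fold, edgeR adjusted p = 0.0416). In voom with a random effect for the pool the limma adjusted p was 0.627, and after summing the tumors of a pool the edgeR adjusted p was 0.246. The isotype tumors held 0, 0, 4, 3, 2 and 0 fibroblast-like cells and the B20-4.1.1 tumors 24, 0, 2, 2, 5, 1, 6, 5 and 4. The 7 fibroblast markers, each higher over B20-4.1.1 cells, summed to 0.0360 to 1.20 UMIs per 10000 in isotype and to 0.231 to 5.86 in B20-4.1.1 tumors. In sums over all cells of a tumor, more cells of a type and more RNA per cell cannot be told apart. Within fibroblast-like cells, pooled by group, Serping1 was at 22.8 UMIs per 10000 in 9 isotype cells and at 33.6 in 49 B20-4.1.1 cells. This difference was not tested, and 57.5% of those B20-4.1.1 UMIs came from 1 tumor. B20-4.1.1 pool 1 tumor 1 alone gave 976 of the 1845 B20-4.1.1 UMIs, and 932 of these were in its 24 fibroblast-like cells.

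**Figure D5:**
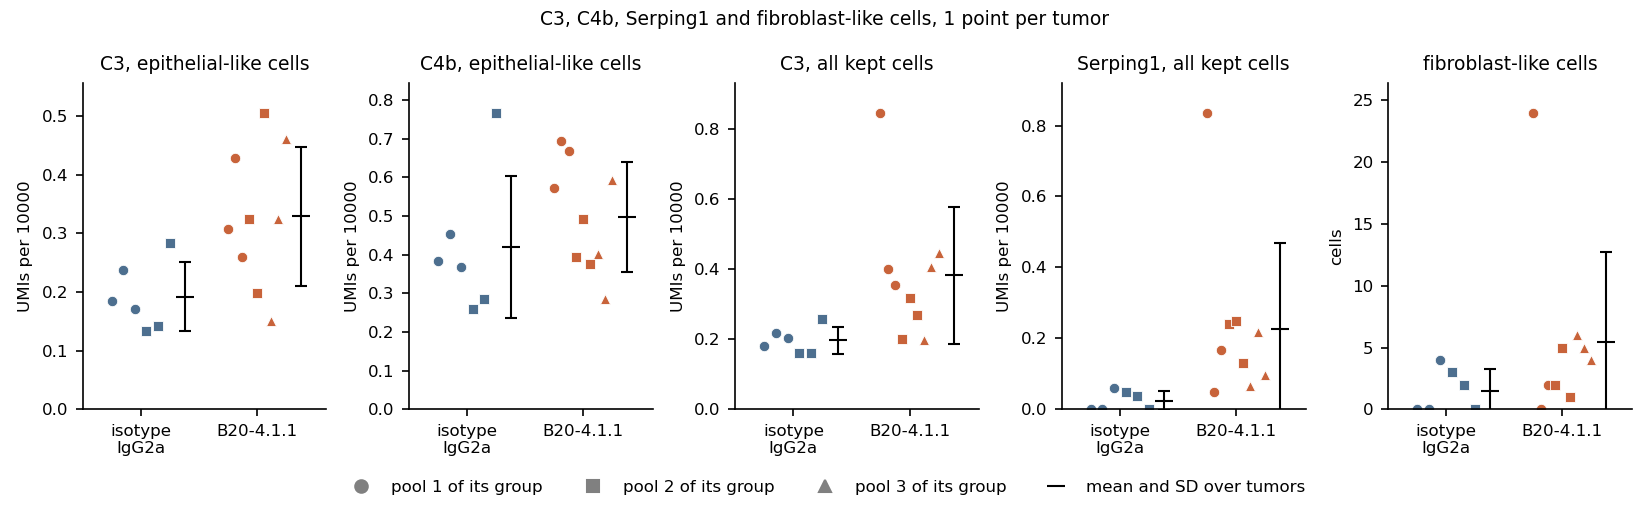
UMIs per 10000 of C3 and C4b in epithelial-like cells and of C3 and Serping1 over all kept cells, and the number of fibroblast-like cells, 1 point per tumor (shape marks the pool), with the mean and SD over 6 isotype IgG2a and 9 B20-4.1.1 tumors, SD bars cut at 0. B20-4.1.1 pool 1 tumor 1 stands highest for C3 (0.847) and Serping1 (0.836) over all kept cells and holds 24 fibroblast-like cells.

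C3 over all kept cells ranged from 0.160 to 0.257 UMIs per 10000 in isotype tumors (median 0.192) and from 0.198 to 0.847 in B20-4.1.1 tumors (median 0.355). All 9 B20-4.1.1 tumors exceeded the mean of the isotype tumors, 7 of them also the highest isotype tumor, and the log2 fold change was 1.07 (SE 0.26, 2.11-fold, edgeR adjusted p = 0.0339). Without the fibroblast-like cells, an alternative chosen after the data had been seen, C3 was at 0.72 (edgeR adjusted p = 0.0799), and Serping1 had too few UMIs left to be tested. Serping1 and C3 were the 2 calls among the 9 members over all kept cells, where 4.83% of the 13342 genes tested were called and 2.5% were called higher. Both were lost without isotype pool 1 (3.01 with an edgeR adjusted p of 0.273, and 0.98 with 0.306) and without B20-4.1.1 pool 1 (2.86 with 0.0777, and 0.76 with 0.0624), C3 also in voom with a random effect for the pool (1.00, limma adjusted p = 0.597) and after summing the tumors of a pool (1.03, edgeR adjusted p = 0.689), and Serping1 without B20-4.1.1 pool 2 (3.39 with 0.0927).

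The other members did not pass the threshold over all kept cells. C1qa ranged from 1.75 to 5.35 UMIs per 10000 in isotype and from 1.46 to 4.82 in B20-4.1.1 tumors (log2 fold change -0.07, SE 0.29, edgeR adjusted p = 0.907), C1qb was at -0.05 and C1qc at -0.10. C3ar1 was at -0.08 (edgeR adjusted p = 0.892), C4b at 0.40 (edgeR adjusted p = 0.341) and Cfb at 0.18 (edgeR adjusted p = 0.656).

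Of the wider complement list, 29 genes were tested over all kept cells, 4 were called higher and 0 lower. Of all genes tested, 2.5% were called higher and 2.34% lower (median log2 fold change 0.15 on the list against 0.03 over all genes). All 4 genes called higher had their highest level in fibroblast-like cells. Beside Serping1 and C3 these were C1ra (2.55, SE 0.58, edgeR adjusted p = 0.0270) and C1s1 (3.21, SE 0.79, edgeR adjusted p = 0.0347), which encode the proteases of the C1 complex. Both rested on few UMIs, 27 and 133 for C1ra and 45 and 339 for C1s1 in isotype and B20-4.1.1 tumors, and 120 of 160 C1ra and 323 of 384 C1s1 UMIs were in fibroblast-like cells. Both calls were lost without isotype pool 1 (2.26 for C1ra with an edgeR adjusted p of 0.273, and 2.43 for C1s1 with 0.286) and with sums per pool, and that of C1s1 also without B20-4.1.1 pool 1 (edgeR adjusted p = 0.0671) or pool 2 (edgeR adjusted p = 0.0885). Of the alternatives fitted for each, 6 of 9 called C1ra and 6 of 12 called C1s1. The proteases and their inhibitor thus lay in the same class, while the C1q chains lay in macrophage-like cells.

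In epithelial-like cells 18 genes of the list were tested, 3 were called higher and 2 lower. Of all genes tested, 7.42% were called higher and 6.99% lower (median 0.16 on the list against -0.00634 over all genes). Clu, which encodes clusterin, a chaperone that binds terminal complement complexes, was the complement-list gene with the highest level there, at 3.63 to 5.41 UMIs per 10000 in isotype and 5.01 to 13.6 in B20-4.1.1 tumors (log2 fold change 0.84, SE 0.19, edgeR adjusted p = 0.0100). Cd59a, an inhibitor of the membrane attack complex, was at 0.40 (SE 0.08, edgeR adjusted p = 0.00654), and both were above the isotype mean in 9 of 9 tumors. Cd55, which speeds the decay of C3 convertases, fell by 0.21 log2 units (SE 0.06, edgeR adjusted p = 0.0329) and the second C5a receptor C5ar2 by 1.01 (SE 0.31, edgeR adjusted p = 0.0400), below the isotype mean in 9 of 9 tumors. Without isotype pool 1 these became 0.57 for Clu (edgeR adjusted p = 0.172) and -0.09 for C5ar2, and Cd59a (0.26, edgeR adjusted p = 0.101) and Cd55 (-0.23, edgeR adjusted p = 0.0803) did not pass either. The calls of Cd55 and C5ar2 were also lost without each of the 3 B20-4.1.1 pools, and with sums per pool none of the 4 genes passed. Of the 15 alternatives, 12 called Clu, 11 Cd59a, 7 C5ar2 and 6 Cd55. C1qbp came next in level after Clu in epithelial-like cells (1.57 UMIs per 10000) and was the highest complement-list gene in T-like cells (1.36, followed by Itgb2 at 1.12), and Itgam (2.58) came next after the C1q chains and C3ar1 in macrophage-like cells.

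The genes whose level followed the C1q chains most closely over the macrophage-like cells of the 15 tumors were Ms4a7 (Pearson's r = 0.865), Gpr183 (0.833), Csnk1e (0.820), Cd63 (0.801) and Hhex (0.785), among 4314 genes outside the complement list. Ms4a7 is also one of the 9 markers of the macrophage gate. For C3 over the epithelial-like cells of the 15 tumors they were Igfbp7 (0.944), Asrgl1 (0.903), Spp1 (0.881), Rp9 (0.879) and Slpi (0.814), among 4281 genes. The tumors share pools, and with pool means removed the values of these 10 genes lay between 0.735 and 0.926.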

How the data were processed

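The authors tagged the cells of each tumor with multiplexing oligonucleotides (3′ CellPlex), mapped and counted reads in Cell Ranger (6.1.2, build mm10, per the submitters' processing notes, which also list Seurat 4.3.0), and deposited 1 matrix of UMI counts per tumor, with no normalization. From these counts, values were computed in R 4.3.3 (limma 3.58.1, edgeR 4.0.16, DESeq2 1.42.0) and Python 3.11.15 (scanpy 1.11.5, leidenalg 0.10.2, scipy 1.17.1, pandas 2.3.3, numpy 2.4.6, matplotlib 3.10.9).

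Of 30340 deposited cells, 10107 with fewer than 2500 UMIs, 375 with more than 27500 UMIs (limits from the study's methods) and 325 with more than 20% mitochondrial UMIs were removed. No doublet caller was run. A cell joined a class with UMIs for at least 3 or 4 of its 6 to 9 markers, thresholds set on the markers once the matrices had been seen. Cells that reached several classes (767) or none (352) were left out of all classes, and 111 macrophage-like cells were at their threshold and 50 cells 1 marker short of it.

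Levels are UMIs per 10000 UMIs of a class. Shares of cells with a UMI were taken after thinning each cell to 2500 UMIs. Poisson (exact) and Wilson intervals, at 95%, and the limit for 0 counts (3 counts) cover counting error only. Counts were summed per tumor and class where a tumor had at least 20 such cells and each group at least 4 such tumors, which macrophage-like, epithelial-like and T-like cells met. The main test was the quasi-likelihood F test of edgeR, two-sided, after filterByExpr and TMM scaling and without covariates. P-values were adjusted over all genes (Benjamini-Hochberg, threshold 0.05), and a standard error is the log2 fold change over the square root of F. The class comparison and the interaction had the tumor as a block. The fits were tested on simulated data drawn without a pool effect, so that test does not cover the likeness of tumors within a pool. The tumor was the replicate, so p-values measure the spread between these tumors. Tumors of a pool resembled each other (correlation within pools 0.257 in macrophage-like and 0.536 in epithelial-like cells), and p-values over tumors may therefore be too small.

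The 9 members, the lists and the tests were chosen with earlier results of these data known. Named beside the members were complement-list genes past the threshold, the up to 5 complement genes of highest level per tested class (at least 1 UMI per 10000), and the 5 genes most correlated over tumors with the C1q chains in macrophage-like and with C3 in epithelial-like cells (average log2 CPM of at least 5). Alternatives were DESeq2, library totals, no filter, voom with a random effect for the pool, sums per pool, thinned cells, 10% mitochondrial UMIs, Leiden clusters, 10 cells per tumor and each pool left out. Leaving out 3 tumors rich in T-like cells or the fibroblast-like cells, and the values within a macrophage cluster, were added after the data had been seen. Coordinates come from GENCODE (GRCm38) and promoters from RefSeq (GRCm38.p6), a C57BL/6J reference, whereas the mice were FVB/N. Hypoxia classes of the B20-4.1.1 tumors are not in the labels and were not analysed here.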

Additional observations from a re-analysis of the deposited data

Results flagged for a closer look

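Single tumors stood apart from their group in 5 of 56 groups of tumors checked, by the gap of the highest or lowest tumor to the next, and chance flags about 1 in 20 such groups. C5ar1 in macrophage-like cells was 3.68 UMIs per 10000 in B20-4.1.1 pool 2 tumor 1 (25 macrophage-like cells), against 2.39 in the next of the 9 tumors. C3 over all kept cells was 0.847 UMIs per 10000 in B20-4.1.1 pool 1 tumor 1, against 0.445 in the next. Serping1 over all kept cells was 0.836 UMIs per 10000 in the same tumor, against 0.248 in the next, and this tumor also held 24 fibroblast-like cells, against 6 in the next. C4b over all kept cells was 0.705 UMIs per 10000 in isotype IgG2a pool 2 tumor 3, against 0.393 in the next of the 6 tumors.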

How the results depend on the processing

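No paired analysis was possible because the pool numbers were given in accession order and only name the pools, each of which holds a single treatment. Leaving out 1 pool moved the number of called genes from 5 to between 0 and 566 in macrophage-like, from 1771 to between 421 and 5504 in epithelial-like, from 0 to between 0 and 417 in T-like and from 645 to between 5 and 3521 over all kept cells, and for the interaction from 9 to between 2 and 103. The highest counts came without isotype pool 2 (417 without B20-4.1.1 pool 3) and the 421 and 5 without isotype pool 1. In voom with a random effect for the pool 0, 41 and 0 genes were called in macrophage-like, epithelial-like and all kept cells, and with sums per pool 0 in each. Thinned cells gave 12, 997 and 121 genes. DESeq2 gave 35 genes in macrophage-like cells, 75 in T-like cells and 1867 over all kept cells and 16 for the interaction. Testing without the filter gave 26, 333 and 46 genes in macrophage-like, all kept cells and the interaction, and a 10% mitochondrial limit 403 over all kept cells. Leiden clusters gave 1 gene in macrophage-like cells and 2 in T-like cells, and leaving out the 3 tumors rich in T-like cells 0 and 3. Library totals without TMM factors gave 2 and 1023 genes in macrophage-like and all kept cells. They changed the calls higher and lower from 4 and 1 to 1 and 1 in macrophage-like, from 912 and 859 to 696 and 1215 in epithelial-like and from 333 and 312 to 262 and 761 in all kept cells, and moved the median of all genes from 0.0295 to -0.0987 log2 units over all kept cells and from 0.00898 to -0.143 in T-like cells. The cause of these shifts was not tested. Serping1 over all kept cells also lost its call without the filter (edgeR adjusted p = 0.0548), with voom (0.627), sums per pool (0.246), thinned cells (0.0933), the 10% mitochondrial limit (0.0523) and without the tumors rich in T-like cells, and C3 with voom (0.597), sums per pool (0.689) and thinned cells (0.143). Directions that changed were those of values not called in the main fits. After its turn, C1qa in epithelial-like cells was called without isotype pool 1 (1.23). Apart from left-out pools, the changes were: with voom C1qc (0.0424) and Cfb (-0.00266) in epithelial-like and C3ar1 (0.00307) over all kept cells, without the tumors rich in T-like cells C1qa (0.0403) and C1qb (0.0481) over all kept cells, and with Leiden clusters the interaction of C4b (0.264). Leaving out pools gave log2 fold changes of -0.107 to 0.707 for C4b in macrophage-like cells, of -1.02 to 1.23, -0.834 to 0.818, -1.13 to 1.11 and -0.0177 to 0.362 for C1qa, C1qb, C1qc and Cfb in epithelial-like cells, and of -0.533 to 0.557, -0.476 to 0.497, -0.589 to 0.573, -0.642 to 0.764 and -0.294 to 0.930 for C1qa, C1qb, C1qc, C3ar1 and C5ar1 over all kept cells. For the interaction it gave -0.954 to 1.34, -0.625 to 1.21, -0.868 to 1.37, -0.220 to 0.877, -0.478 to 0.196, -0.855 to 1.56 and -1.16 to 2.40 for C1qa, C1qb, C1qc, C3, C4b, C3ar1 and C5ar1. Without thinning, the mean share of cells with a UMI was 68.7% in place of 47.5% for C3ar1 and 58.1% in place of 35.5% for C5ar1 in macrophage-like cells, and 14.3% in place of 6.25% for C3 and 23.2% in place of 9.68% for C4b in epithelial-like cells. Of the values of single genes under all alternatives, 552 kept direction and side of the threshold, 54 lost a call, 11 gained one and 30 changed direction. Depth limits Cfb (270 UMIs) and Serping1 outside fibroblast-like cells, and the neutrophil-like, fibroblast-like, dendritic-like, endothelial-like and B-like classes had too few cells per tumor for a test.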
